A study of Mus musculus x Rattus norvegicus with 2 samples.

Results

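The cells described here are rat and mouse cells with pericyte marker RNA from mouse-rat chimeric lung in which the rat host carried the Nkx2-1-/- genotype. They came from the mutant library of a 10x single-cell RNA experiment on embryonic lung, and 705 cells were selected, 68 of rat and 637 of mouse, of 8990 kept cells and 10918 deposited cells of that library (22047 cells in the series). The selection rests on measured values. A barcode was kept with at least 500 genes and at most 20% of its counted molecules (unique molecular identifiers, UMIs) from mitochondrial genes. Species was assigned from the share of UMIs on mouse genes, mouse from 90% upward and rat from 10% downward. A cell was then chosen by the summed UMIs of 4 genes of its own species, Higd1b, Cox4i2, Cspg4 and Kcnk3, which had to reach 4, with at most 2 UMIs of Epcam and at most 2 of Cdh5 plus Pecam1. The UMIs of these genes and the species shares are therefore given as a description only.

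Lung tissue of both groups was taken at E20.5, late in gestation, from chimeric embryos, with the strains given as C57BL/6 for the mouse and SD for the rat. The mutant lung had an Nkx2-1-/- rat host and the control lung a wt rat host. The tissue was dispersed to single cells and sequenced with 10x 3' v3 chemistry, with 1 library per host genotype. How many embryos went into a library, and which stage or number of donor cells was used, is not given in the sources used here. Mutant lung and control lung therefore stand for the libraries below. With 1 library per group no difference below has a replicate check and no test was possible. Intervals are 95% and cover counting error only, exact Poisson for levels, exact conditional binomial for ratios and exact Clopper-Pearson for shares of cells.

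Pericytes are the mural cells wrapped around capillaries, embedded in a basement membrane that they share with the endothelium. They are recruited by endothelial PDGF-B through the receptor encoded by Pdgfrb, are held in place through Notch3 and integrins, and return signals such as angiopoietin-1 to the endothelium. In the lung they carry the soluble guanylate cyclase that senses nitric oxide, and a set of potassium and calcium channels that sets their tone. Nkx2-1 is the transcription factor that specifies lung epithelium, and is not a pericyte gene.

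The gate selected strongly marked cells in rat and mostly weakly marked cells in mouse. Rat gated cells had a median of 47.5 marker UMIs (4 to 131), and 61 of 68 had 15 or more. Mouse gated cells had a median of 6 (4 to 156), and 416 of 637 had 4 to 14. At the border, 1 rat cell had 3 marker UMIs and 2 had 4, while 329 mouse cells had 3 and 170 had 4 before the limits on Epcam and endothelial genes. Of the 79 rat cells in the mutant library, 11 did not reach 4. Among mouse cells with at least 4 marker UMIs, 21 were removed by Epcam and 15 by Cdh5 plus Pecam1.

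**Figure D1:**
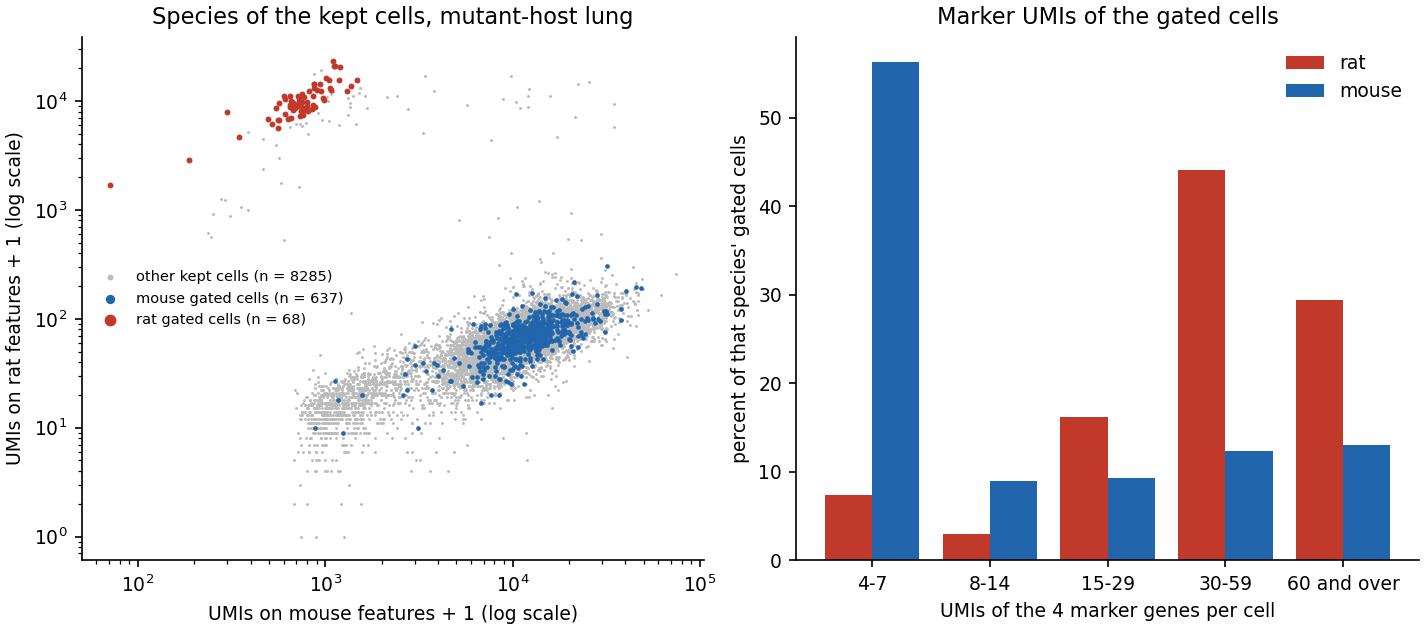
Left, UMIs on mouse and on rat features (each plus 1, log scales) for the 8990 kept cells of the mutant-host lung, with the 68 rat and 637 mouse gated cells in colour. Right, the percentage of each species' gated cells by UMIs of the 4 marker genes; most mouse gated cells sit at 4 to 7, most rat ones at 30 or more.

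Mouse cells with 4 to 14 marker UMIs went against the label, as did rat cells with 4 to 7. In the 416 mouse cells the markers were mainly Kcnk3, a two-pore potassium channel, at 275 CPM (counts per 1000000 UMIs of the cells' own species), with Higd1b at 31.5. Pdgfrb stood at 86.0 CPM in them and Gucy1a1, a guanylate cyclase subunit, at 227. Genes of lung fibroblasts were high there: Hhip at 1408 CPM, Tgfbi at 1181, Pdgfra at 793 and Egfem1 at 2746. The 7 rat cells in this range had Hhip at 398 CPM, Tgfbi at 623, Pdgfra at 831 and Egfem1 at 346, with Pdgfrb at 104. All UMIs of these fibroblast genes came from the 5 rat cells with 4 to 7 marker UMIs, where Pdgfrb was at 19.9 CPM. The 2 rat cells with 8 to 14 had none of them, with Pdgfrb at 664 CPM and Gucy1a1 at 3318. In the 221 mouse cells with at least 15 marker UMIs Pdgfrb was at 686 CPM and Gucy1a1 at 3034, with Hhip at 44.2, Tgfbi at 35.2 and Pdgfra at 20.1. The 61 rat cells with at least 15 had no UMI of Hhip, Tgfbi, Pdgfra or Egfem1.

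Results are therefore given for the cells with at least 15 marker UMIs in both species, called marker-rich cells below, a limit set after the values were seen, and for the gate of 4 where the 2 differ. For a sum over the wider gate, fewer pericytes among the cells and less RNA per cell cannot be told apart. Marker-rich rat cells had a median of 10498 UMIs and 3457 genes, and marker-rich mouse cells 12121 UMIs and 3851 genes. The share of mitochondrial UMIs was 6.86% in rat and 3.71% in mouse. Summed over cells, 656513 rat and 2785323 mouse UMIs carry the values. The control lung gave 66 rat and 289 mouse marker-rich cells by the same limits. No gated barcode was shared between the libraries, which had 47 barcodes in common.

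RNA from outside the cell was measurable. Rat marker-rich cells had a median of 6.95% of UMIs on mouse features, and 3.23% once 3 features that look like ribosomal RNA were left out, against 0.564% and 0.0762% on rat features in mouse cells. Mouse Sftpc, the surfactant gene of alveolar epithelium, gave 2.89 UMIs per marker-rich rat cell and 5.39 per marker-rich mouse cell, and rat Sftpc gave none in either. EGFP, carried among the mouse features, gave 31 UMIs in all 68 rat gated cells and 36225 in the mouse gated cells. Rat Nkx2-1 had 1 UMI over all barcodes of the mutant library and 5103 in the control library; rat gated cells of either lung had none, so the check of the genotype comes from other cells.

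Rat cells were a minority of the gated cells, and their share depended on the gate. They were 9.65% of the 705 gated cells (7.57% to 12.1%) and 21.6% of the 282 marker-rich cells (17.0% to 26.9%). In the control lung they were 16.8% of 766 gated cells (14.3% to 19.7%) and 18.6% of 355 marker-rich cells (14.7% to 23.0%). Under the gate of 4 the mutant share was below the control share, and among marker-rich cells the point value was above it with overlapping intervals. The species limits did not act alike on the libraries. Before the marker gate, 79 cells were called rat in the mutant and 725 in the control library. Without the features that look like ribosomal RNA it was 104 and 820. Kept barcodes called neither species numbered 57 and 882.

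Levels were compared over genes whose symbol is shared by the species, as the log2 difference of rat minus mouse after adding 10 CPM to both, and a gene counts as higher or lower from a 2-fold difference on that scale. Among marker-rich cells 684 of 6144 compared genes were higher in rat (11.1%) and 728 lower (11.8%), with a median difference of 0.10. With the gate of 4 it was 793 of 6344 (12.5%) higher and 888 (14%) lower. The control lung gave 461 of 5886 higher (7.83%) and 858 lower (14.6%) among marker-rich cells, and 7.34% and 13.7% with the gate of 4. Of the mutant differences, 303 of the 684 higher genes (44.3%) and 502 of the 728 lower genes (69.0%) were also past 2-fold the same way in control marker-rich cells. The other 596 rat and 6777 mouse cells of the control lung, none of them gated, had 174 of the higher genes (25.4%) and 385 of the lower genes (52.9%) past 2-fold the same way, and 356 and 193 were past it in neither set of control cells. Intron lengths were those of the mouse annotation, matched to rat genes by symbol. The median difference ran with that length, from 0.24 for genes with under 2 kb of intron to -0.36 for those with over 200 kb, and from 0.13 to -0.59 in the control lung. Its part in single differences was not tested.

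Most pericyte markers were within 2-fold between the species. Of 31 shared pericyte markers outside the gate, 26 could be compared among marker-rich cells: 3 were higher in rat, 6 lower and 17 within 2-fold, with a median difference of -0.11, beside 11.1% higher and 11.8% lower over all genes. The summed level was 17445 CPM in rat and 18640 in mouse. With the gate of 4 the counts turned to 9 higher and 3 lower with a median of 0.87, along with the fibroblast genes of the weakly marked mouse cells. Pdgfrb was at 614 CPM in rat and 686 in mouse, in 58 of 61 rat and 218 of 221 mouse cells. Ndufa4l2, a hypoxia-linked mitochondrial protein gene typical of lung pericytes, was at 1557 CPM in rat and 1644 in mouse. Kcnj8 and Abcc9 encode the pore and the sulfonylurea subunit of the KATP channel; they stood at 177 and 247 CPM in rat and at 150 and 220 in mouse. The intervals of the ratio included equality for Ndufa4l2, Kcnj8 and Abcc9.

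**Figure D2:**
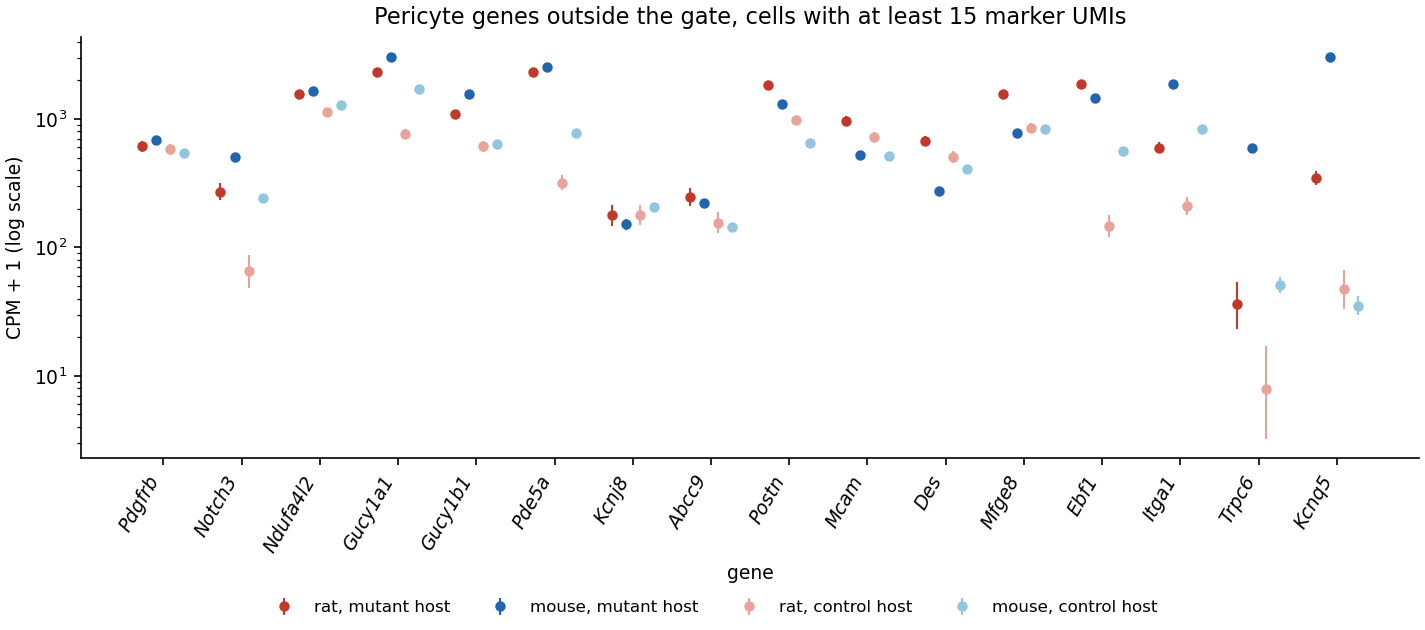
Level of 16 pericyte genes in marker-rich cells (CPM plus 1, log scale) for rat and mouse cells of the mutant and control lungs; bars are 95% Poisson intervals of the sum over cells. Pdgfrb and Ndufa4l2 lie close together across species, and Itga1, Trpc6 and Kcnq5 are higher in mouse cells of the mutant lung.

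Both subunits of the nitric oxide receptor and the enzyme that ends its signal were within 2-fold between the species in the mutant lung. Gucy1a1 and Gucy1b1, the subunits of soluble guanylate cyclase, were at 2335 and 1092 CPM in rat and at 3034 and 1576 in mouse. Pde5a, the phosphodiesterase that breaks down cyclic GMP, was at 2327 and 2559 CPM. Of 18 compared genes of nitric oxide and cyclic nucleotide signalling, 2 were higher in rat and 2 lower, which is near the 11.1% and 11.8% over all genes. In the control lung Gucy1a1 was at 769 CPM in rat and 1726 in mouse, and Pde5a at 319 and 771, so that both were over 2-fold lower in rat there. The direction of the list in the mutant lung depended on the gate. Its median was -0.22 among marker-rich cells, with sums of 7951 CPM in rat and 9438 in mouse. With the gate of 4 the median was 0.51, with sums of 7635 and 4582, and 3 of 18 genes were higher and 2 lower.

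The pericyte markers past 2-fold included a cytoskeletal gene, secreted proteins and an integrin. Des, the intermediate filament desmin, was at 672 CPM in rat and 275 in mouse (2.44-fold, 2.16 to 2.75). Mfge8, a secreted integrin ligand, was at 1578 and 783 CPM (2.01-fold, 1.87 to 2.17), and Vtn, vitronectin, at 92.9 and 25.1. These were the 3 markers higher in rat; in the control lung Des was at 504 and 410 CPM and Mfge8 at 853 and 831. On the other side Itga1, the alpha chain of a collagen-binding integrin, was at 596 CPM in rat and 1872 in mouse, 3.14-fold higher in mouse (2.84 to 3.49), with 209 and 841 in the control lung. Trpc6, Heyl, Rgs4 and Gpc3 were also among the markers lower in rat. Notch3 was at 271 and 508 CPM. Cd248, endosialin, had no rat UMI in either lung against 93.3 CPM in mouse, and too few rat UMIs over all kept cells to be compared.

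Calcium and potassium channel genes held the widest gaps among the genes of pericyte tone. Of 18 compared channel and transporter genes 8 were lower in rat and 2 higher, with a median of -0.65, beside 11.8% lower and 11.1% higher and a median of 0.10 over all genes. In the control lung 7 of 17 were lower and 1 higher, beside 14.6% and 7.83% over all genes. Trpc6, a receptor-operated calcium channel (mm10 chr9:8544142-8680741), was at 35.0 CPM in rat and 590 in mouse. It was found in 17 of 61 rat cells and 182 of 221 mouse cells, and was 16.8-fold higher in mouse (11.2 to 26.6). Kcnq5, a voltage-gated potassium channel (mm10 chr1:21398403-21961942), was at 347 CPM in rat and 3029 in mouse, 8.72-fold higher in mouse (7.65 to 9.99). In the control lung Kcnq5 was at 46.7 CPM in rat and 34.2 in mouse, within 2-fold. Cacna1c, the pore of the L-type calcium channel, was at 224 and 995 CPM, and its beta subunit Cacnb2 at 82.3 and 409. Itpr1 and Itpr2, the intracellular calcium release channels, went opposite ways, at 174 and 67.5 CPM for Itpr1 and 35.0 and 210 for Itpr2. Trpc6 has 132 kb of intron, in a range of 50 to 200 kb where the median difference was -0.01. Kcnq5 has 556 kb, in the range over 200 kb where it was -0.36. The part of intron length in these differences was not tested.

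Of 21 compared contractile genes 3 were higher and 3 lower in rat, with a median of 0.19, near the 11.1% and 11.8% over all genes. Acta2, smooth muscle actin, was at 698 CPM in rat and 1196 in mouse, and Myh11, the smooth muscle myosin heavy chain, at 70.1 and 330 (4.71-fold higher in mouse, 3.50 to 6.48). Myl9, the regulatory light chain, was at 1177 and 529 CPM, and Actn1, which crosslinks actin, at 303 and 109. Ppp1r14a, an inhibitor of myosin phosphatase, was at 1956 and 1214.

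Basement membrane genes were mostly within 2-fold, with 1 of 15 higher, 1 lower and a median of 0.15, beside 11.1% and 11.8% over all genes. Col4a1 was at 6301 CPM in rat and 3276 in mouse, 1.92-fold (1.85 to 2.0), and was found in all 61 rat cells and in 219 of 221 mouse cells. Its partner chain Col4a2 was at 1418 and 1621 CPM, and the linker nidogen, Nid1, at 807 and 514. Col18a1, the source of endostatin, was the gene higher in rat, at 48.7 and 5.39 CPM. Fn1, fibronectin, was the gene lower in rat, at 27.4 and 388 CPM, 14.2-fold higher in mouse (8.91 to 24.0), with 139 and 266 in the control lung.

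Of 20 compared genes of the fibrillar and elastic matrix, 8 were lower in rat and 3 higher, with a median of -0.67, beside 11.8% lower and 11.1% higher over all genes. The 3 higher were collagens: Col3a1 at 1644 CPM in rat and 470 in mouse (3.49-fold, 3.22 to 3.79), Col6a2 at 762 and 255, and Col5a2 at 500 and 208. Col1a1 was at 361 and 406 CPM. Eln, elastin, was at 442 CPM in rat and 1433 in mouse, but 59.7% of its rat UMIs came from 1 cell, and the control lung had 909 and 796. With the gate of 4, 13 of 23 were lower and none higher, along with the fibroblast genes of the mouse cells.

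Signals toward the endothelium split between the angiopoietins. Angpt1, the ligand that stabilises vessels through Tie2 (mm10 chr15:42424723-42676977), was at 48.7 CPM in rat and 382 in mouse, 7.84-fold higher in mouse (5.52 to 11.5). It was found in 14 of 61 rat cells and 200 of 221 mouse cells. Angpt2, its context-dependent antagonist, was at 105 CPM in rat and 29.1 in mouse (3.61-fold, 2.58 to 5.04). Vegfc, a growth factor for lymphatic endothelium, was at 104 and 8.98 CPM (11.5-fold, 7.20 to 19.1). The control lung had the same order for all 3: Angpt1 at 16.5 CPM in rat and 78.0 in mouse, Angpt2 at 39.8 and 12, and Vegfc at 90.6 and 7.82. Ednra, the endothelin receptor, was at 356 CPM in rat and 713 in mouse, and Ednrb, the other receptor, had 3.05 and 71.8. Of 20 compared signalling genes 7 were lower in rat and 2 higher, beside 11.8% and 11.1% over all genes.

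Of the shared genes, 9 of 17 in the Notch list and 15 of 24 in the TGF-beta and BMP list could be compared. Over all genes 11.1% were higher in rat and 11.8% lower. In the Notch list 2 of 9 were higher and 1 lower: Notch4, mainly an endothelial receptor, at 85.3 CPM in rat and 8.26 in mouse, Nrarp, a feedback target, at 196 and 77.9, and Heyl, a target gene, at 27.4 and 98.0. In the TGF-beta and BMP list 1 of 15 was higher and 4 lower. Fst, follistatin, which binds activin, was the higher gene at 192 and 7.54 CPM (25.5-fold, 16.0 to 42.6), and the control lung had 166 and 4.95. Bmp5, a ligand, had 1.52 CPM in rat, a single UMI, and 115 in mouse.

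Of 23 compared adhesion and guidance genes 7 were lower in rat and 2 higher, beside 11.8% and 11.1% over all genes. In the control lung 9 of 22 were lower and 2 higher, beside 14.6% and 7.83%. Sema5a, a semaphorin, was at 6.09 and 158 CPM, and Cdh2, N-cadherin, which joins pericytes to endothelium, at 119 and 320. Itga4, the alpha-4 integrin, was higher in rat at 617 and 204 CPM (3.03-fold, 2.66 to 3.45), with 354 and 131 in the control lung.

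Genes of cell division were higher in rat cells of the mutant lung than in mouse cells of the same library. Of 26 compared genes 13 were higher in rat and 1 lower, with a median of 1.01, beside 11.1% higher and a median of 0.10 over all genes. Top2a, the topoisomerase of S to M phase (mm10 chr11:98992943-99024189), was at 765 CPM in rat and 180 in mouse, 4.25-fold (3.75 to 4.82). Mki67 was at 296 and 115 CPM. Ube2c, which drives mitotic exit, was at 323 and 44.9, Cenpf, a kinetochore gene, at 260 and 40.2, and the mitotic kinase gene Cdk1 at 264 and 64.6. Genes of DNA replication were closer, with Mcm3 at 32.0 and 35.2 CPM, Mcm6 at 62.5 and 58.9, and Pcna at 123 and 76.5. Cdkn1c, a cell cycle inhibitor, was the gene lower in rat, at 250 CPM against 953 in mouse (3.81-fold higher in mouse, 3.26 to 4.49).

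**Figure D3:**
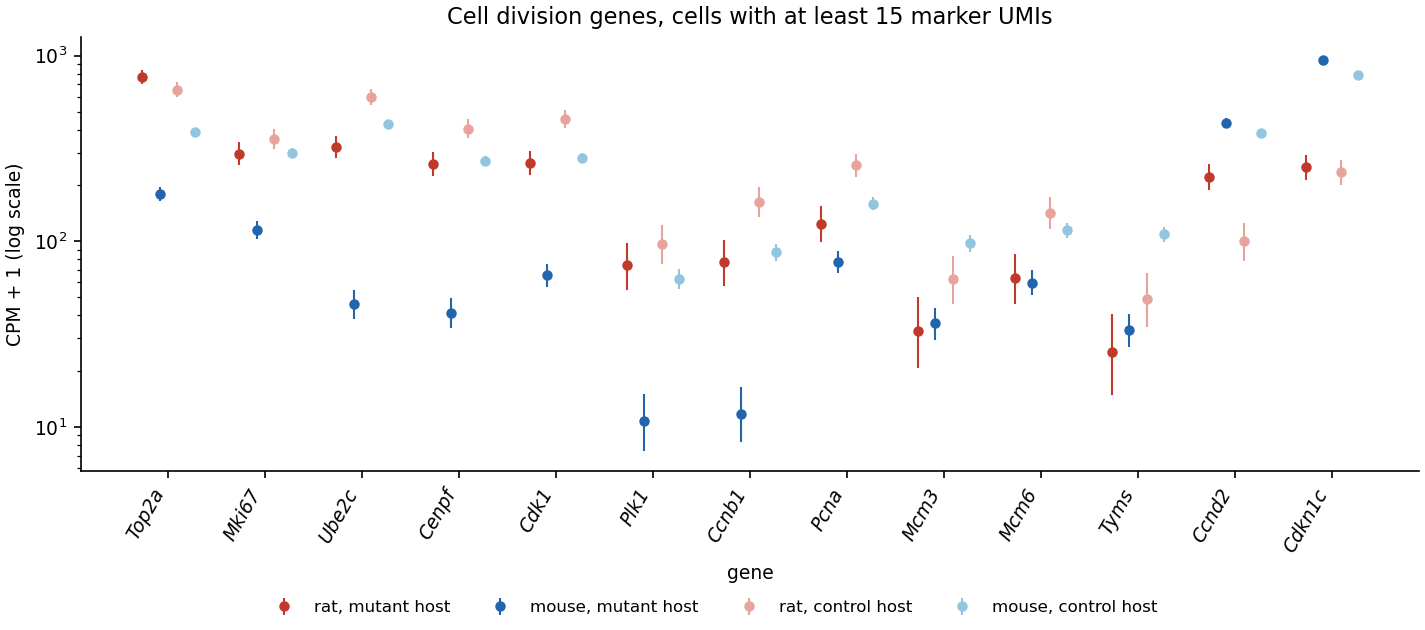
Level of 13 cell division genes in marker-rich cells (CPM plus 1, log scale) for rat and mouse cells of the mutant and control lungs; bars are 95% Poisson intervals. The mitotic genes Top2a to Ccnb1 are lowest in mouse cells of the mutant lung, and Cdkn1c is higher in mouse cells of both lungs.

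For Top2a, Mki67, Ube2c, Cenpf and Cdk1 the mouse level differed more between the lungs than the rat level. In the control lung none of 28 was higher in rat and 3 were lower, with a median of 0.25. Over all genes of that lung 7.83% were higher and 14.6% lower. Top2a was there at 656 CPM in rat and 388 in mouse, and Ube2c at 599 and 426. Top2a was thus 765 and 656 CPM in rat cells of the mutant and control lungs, while in mouse cells it was 180 and 388. Ube2c went from 599 CPM in control to 323 in mutant rat cells and from 426 to 44.9 in mouse cells. The mutant difference passed the control difference by at least 2-fold for 12 of 28 genes and fell short of it for none, beside 9.4% and 3.57% over all genes.

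The cell division signal came from a minority of cells. Top2a was found in 20 of 61 rat cells and 29 of 221 mouse cells, at median depths of 10498 and 12121 UMIs. After every cell was thinned to 5000 UMIs, which left out 1 rat and 11 mouse cells, Top2a was found in 18 of 60 rat cells (30%, 18.8% to 43.2%) and 23 of 210 mouse cells (11%, 7.07% to 16.0%). Thinned control cells gave 28 of 64 (43.8%) for rat and 135 of 280 (48.2%) for mouse. The median over cells of the summed list ran the other way, 1161 CPM in rat and 1633 in mouse, and the pooled sum was 3672 and 2472 CPM; the list holds Cdkn1c and Ccnd2, the D-type cyclin at 222 and 434 CPM, which most mouse cells carry. Marker-rich rat cells held 4 UMIs of the mouse Top2a feature and 0 of those of Mki67, Ube2c, Cenpf, Cdk1 and Pcna. Free rat RNA of other cells could still reach the rat counts. The part of free RNA in the counts of either species was not tested.

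The widest differences with rat above mouse were of secreted and surface proteins. Pla1a, a phospholipase of phosphatidylserine (mm10 chr16:38396117-38433145), was at 716 CPM in rat and 4.31 in mouse, 166-fold (94.2 to 324). All 61 rat cells had it, from 117 to 1742 CPM, and 10 of 221 mouse cells. Colec10, a soluble lectin, was at 484 and 1.80 CPM, in 55 of 61 rat and 5 of 221 mouse cells. Cd48, known as an adhesion molecule of immune cells, was at 241 CPM in rat with no UMI in mouse, at least 223-fold higher. Tnfrsf11b, osteoprotegerin, was at 212 and 8.98 CPM, and Timp1, a metalloproteinase inhibitor, at 274 and 12.2.

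All 5 of these had the same order in the control lung. Pla1a was at 288 CPM in rat and 1.83 in mouse there, Colec10 at 214 and 11, Cd48 at 202 and 0, Tnfrsf11b at 98.8 and 7.82, and Timp1 at 334 and 26.9. In the other control cells Pla1a was at 13.6 CPM in rat and 0.198 in mouse, Cd48 at 116 and 2.08 and Timp1 at 146 and 19.8. Pla1a, Cd48 and Timp1 were thus past 2-fold the same way outside the gate too. Colec10, at 1.34 and 0.571 CPM there, was within 2-fold after adding 10 CPM. Xkr4, a scramblase-related membrane protein gene (mm10 chr1:3205901-3671498), had 457 and 3.59 CPM in the mutant lung and 5.49 and 1.83 in the control lung.

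**Figure D4:**
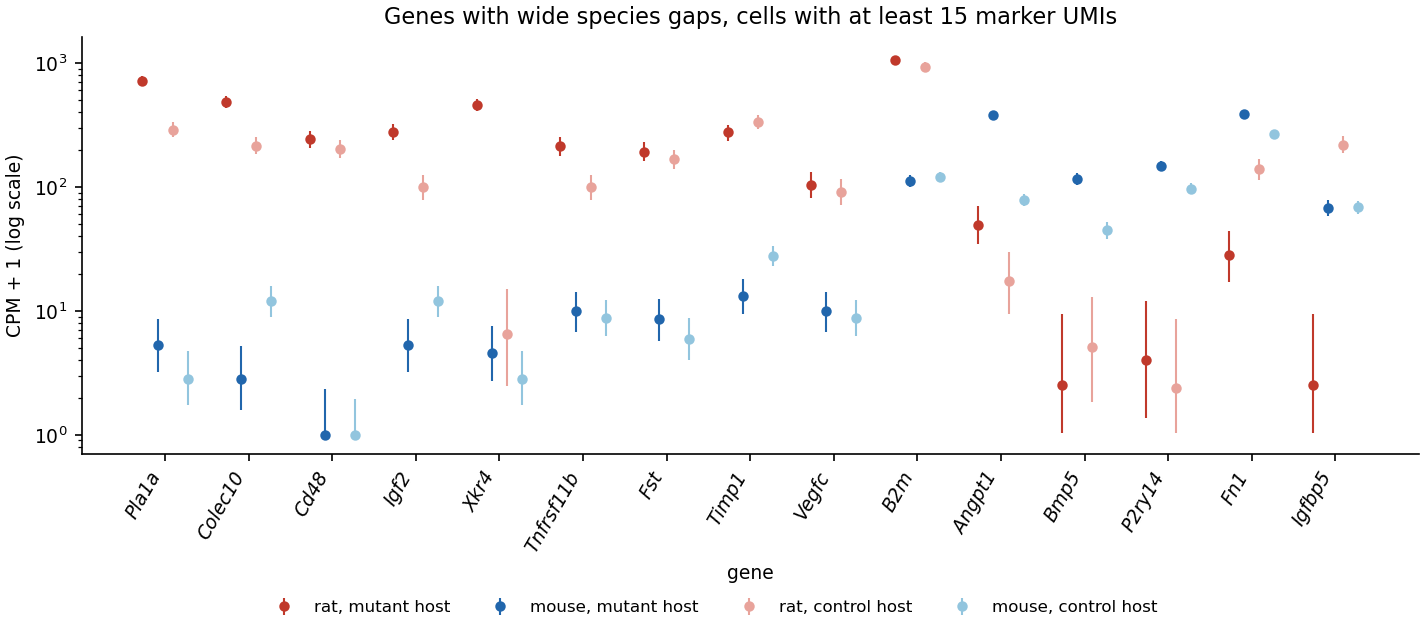
Level of 15 genes with wide species differences in marker-rich cells (CPM plus 1, log scale) for rat and mouse cells of the mutant and control lungs; bars are 95% Poisson intervals. Pla1a, Colec10, Cd48 and Fst are high in rat cells of both lungs, Xkr4 in those of the mutant lung, and Angpt1 and P2ry14 are higher in mouse cells of both.

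Of 19 compared imprinted and fetal growth genes 5 were higher in rat and 7 lower, beside 11.1% and 11.8% over all genes. Igf2, the fetal growth factor, was at 276 CPM in rat and 4.31 in mouse (64.0-fold, 35.7 to 126), with 98.8 and 11 in the control lung. The other control cells had it at 291 CPM in rat and 15.2 in mouse, so this difference was also found outside the gate. Its decoy receptor Igf2r was at 1103 and 640 CPM and the imprinted hydrolase gene Mest at 1138 and 487. Dlk1, a Notch-like fetal ligand, was at 160 and 1147 CPM, 7.17-fold higher in mouse (5.91 to 8.80), with 173 and 2130 in the control lung. Ptn, pleiotrophin, was at 108 and 11.8 CPM, but 57.7% of its rat UMIs came from 1 cell.

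Among the 10 compared genes of antigen presentation and interferon response, 3 were higher in rat and 2 lower. Over all genes it was 11.1% and 11.8%, which stands beside each list in this paragraph. B2m, the light chain of class I molecules, was at 1062 CPM in rat and 111 in mouse (9.60-fold, 8.38 to 11), with all 61 rat cells positive; the control lung had 935 and 120. Ifi27, an interferon-induced gene, was at 580 and 158 CPM. Of the sterol genes, Fdps and Idi1 of the mevalonate pathway were at 149 and 119 CPM in rat and 10.4 and 6.10 in mouse, within a list with 4 of 14 higher and 3 lower; the other control cells had Fdps at 239 and 62.9 and Idi1 at 188 and 34.8. Of 20 hypoxia and glycolysis genes 3 were higher and 2 lower, with a median of -0.05. The glycolytic enzyme genes went both ways, with Eno1 and Pgk1 at 420 and 363 CPM in rat and 123 and 99.8 in mouse, and Tpi1 at 13.7 in rat and 223 in mouse. Tpi1 was at 6.80 and 313 CPM in the other control cells. The genes of oxidative phosphorylation encoded in the nucleus had 2 of 16 higher and none lower.

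Immediate early genes, which respond to stimuli and to tissue dissociation, had 4 of 20 higher in rat and 3 lower, beside 11.1% and 11.8% over all genes. Fos was at 3229 CPM in rat and 1396 in mouse, with 2010 and 858 in the control lung, and Fosb at 1168 and 264. Klf2, a flow-responsive factor, was at 13.7 and 648 CPM, and Socs3, a cytokine feedback gene, at 24.4 and 378. The other control cells had Klf2 at 3.54 CPM in rat and 156 in mouse, Socs3 at 19.6 and 181, and Fos at 1411 and 664. These 3 differences were thus also found outside the gate. Fosb was at 260 and 126 CPM there, just within 2-fold after adding 10 CPM. The heat shock gene Hspa1b was at 28.9 CPM in rat and 13.6 in mouse in the mutant lung and at 1085 and 429 in the control lung. The libraries thus differed in this stress gene in both species, and its part in other differences between the lungs was not tested.

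Species differences held their order across the lungs. Over the 5276 genes compared in both, the differences had a Pearson correlation of 0.80 and a Spearman correlation of 0.757, which describe these genes and carry no test, since genes share their libraries. Of the genes compared in both, 280 were higher in rat in both lungs, 49.3% of the 568 in the mutant and 70% of the 400 in the control lung. For lower genes it was 430, 73.4% of 586 and 55.7% of 772. Opposite calls in the 2 lungs were given to 3 genes, named here after their values were seen: Ccl2 and Usp22, higher in rat in the mutant lung, and Igfbp5, lower. Usp22, a deubiquitinase gene, was at 116 CPM in rat and 47.8 in mouse in the mutant lung and at 24.7 and 71.2 in the control lung.

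**Figure D5:**
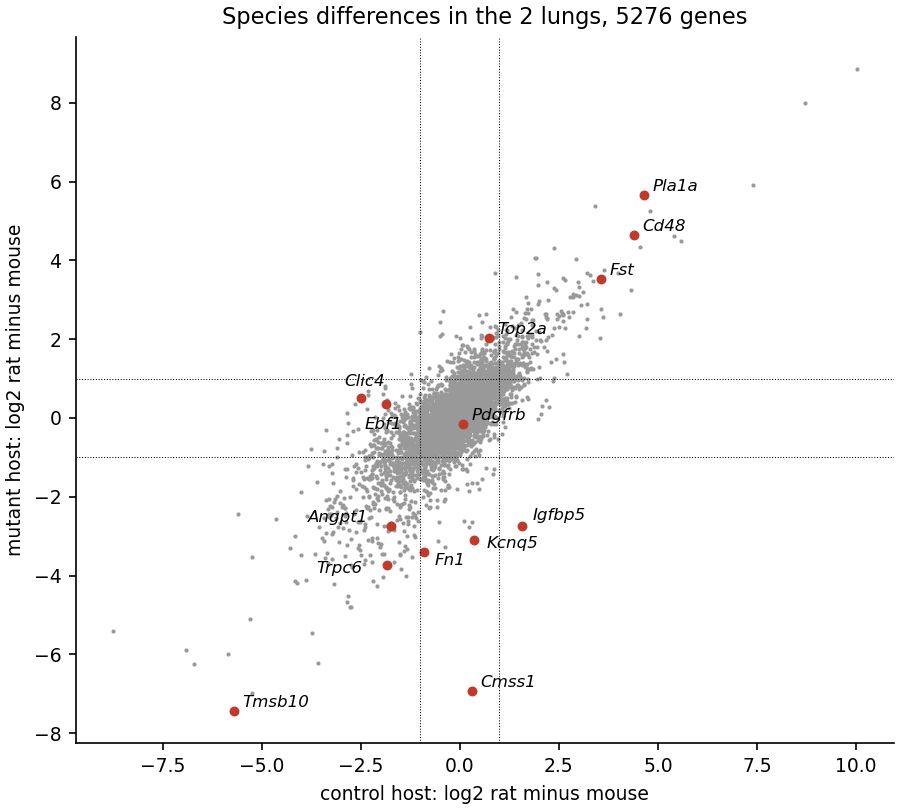
Log2 difference of rat minus mouse in marker-rich cells of the control lung (x axis) and the mutant lung (y axis), 1 point per gene, with 2-fold limits dotted. Most of the 5276 genes lie along the diagonal, with Pearson 0.80; Igfbp5, Kcnq5 and Cmss1 lie far below it.

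The mutant difference exceeded the control difference by at least 2-fold for 580 of 6170 genes (9.4%) and fell below it for 220 (3.57%), with a median of 0.15. Scaling by TMM, a trimmed mean of ratios, changed that split to 400 and 316. With the gate of 4 it was 669 (10.5%) and 410 (6.41%) of 6397, and 508 and 493 under TMM. The libraries also differed in the software that counted them, Cell Ranger 6.0.1 for control and 7.0.1 for mutant, which cannot be told apart from the host genotype in any value of this comparison. Nor can the sex of the rat cells, which the labels do not give: the Y-linked Eif2s3y was at 82.3 CPM in rat cells of the mutant lung and 0 in those of the control lung, while Ddx3y, also Y-linked, was at 0 and 2.75.

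Transcription factors of mesenchyme were higher relative to control in 8 of 23 and lower in none, with a median of 0.57. Over all genes it was 9.4% and 3.57%, with a median of 0.15. Ebf1, a factor needed for mural cells, was at 1877 CPM in rat and 1461 in mouse in the mutant lung and at 147 and 561 in the control lung. Rat marker-rich cells of the mutant lung also held UMIs of the mouse Ebf1 feature. They were at 16.1% of the level per mouse marker-rich cell, where the median over genes was 1.23%. For Zeb2, Nr2f2 and Tbx2 this share was 13.0%, 6.74% and 5.51%. The part of this in the levels was not tested. Zeb2 was at 1377 and 1317 CPM against 281 and 744, and Nr2f2, a venous and mesenchymal nuclear receptor, at 707 and 637 against 191 and 401. Tbx2 was at 116 and 449 CPM against 15.1 and 391. In each of these 4 the rat level was the one that differed most between the lungs.

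The same held for Clic4, a chloride channel gene, at 366 and 255 CPM in the mutant and 20.6 and 162 in the control lung, and for Pdzd2, at 838 and 1951 against 20.6 and 426. Nop56, a snoRNP gene, was at 663 and 42.7 CPM against 140 and 70.7, and Dnajb14, a chaperone gene, at 317 and 39.5 against 28.8 and 42.5. Kcnq5, given above, and Ror1, a Wnt receptor, were below their control difference: Ror1 was at 27.4 CPM in rat and 244 in mouse in the mutant lung, and at 24.7 and 19.6 in control. Cmss1 was at 15.2 and 3053 CPM in the mutant lung and at 45.3 and 34.7 in the control lung.

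The other pair with opposite directions encodes secreted proteins. Ccl2, a monocyte chemokine, was at 82.3 CPM in rat and 10.4 in mouse in the mutant lung and at 75.5 and 161 in the control lung. Igfbp5, which binds insulin-like growth factors, was at 1.52 and 66.8 CPM in the mutant lung and at 218 and 67.3 in the control lung. The mutant rat value of Igfbp5 is 1 UMI, and 36.0% of the mutant mouse UMIs came from 1 of 17 positive cells.

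Markers of fibroblasts, mesothelium and epithelium summed to less in rat than in mouse marker-rich cells, and those of endothelium to more. The 11 shared myofibroblast markers summed to 131 CPM in rat, with 6 at 0, and 944 in mouse. The 12 alveolar fibroblast markers summed to 183 CPM with 4 at 0, and 564. Smooth muscle markers summed to 1516 and 2189 CPM, and all 7 mesothelial markers were at 0 in rat and summed to 91.2 in mouse. Endothelial markers outside the gate summed to 766 CPM in rat, with 8 of 15 at 0, and 560 in mouse. Epithelial markers summed to 67.0 CPM in rat, with 13 of 16 at 0, and 638 in mouse, of which Sftpc gave 428. Immune markers summed to 10.7 and 51.3 CPM. Their part in the gene differences above was not tested.

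For a group of abundant genes the counting is uncertain. Tmsb10, thymosin beta-10, had no rat UMI and 1714 CPM in mouse, with 24.7 and 1782 in the control lung and 16.6 and 1675 in the other control cells. Mfap4 had none and 631 CPM, Gng11 none and 1255, and Ptma 19.8 and 2233. In the other direction Nme2 was at 643 and 16.5 CPM. For H2az1, a histone variant, the marker-rich rat cells held 151 UMIs of the mouse feature and only 4 of the rat feature. The mouse feature was at 36.5% of the level per marker-rich mouse cell, where the median over genes was 1.23%. Mest, given above, had 16.8% by the same measure. Of 13 mitochondrially encoded genes 7 were higher in rat in both lungs, with medians of 1.03 and 1.19, beside 11.1% and 7.83% higher over all genes. Tmsb10, Mfap4, Gng11, Ptma, Nme2, H2az1 and the mitochondrially encoded genes are part of the counts above, and no level of theirs is read here as a difference between pericytes.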

How the data were processed

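Droplet libraries of mutant-host and control-host lung were analysed, 1 of each. The deposited matrices hold the authors' raw counts, whole-number UMIs per gene and barcode, over a joint mouse and rat gene set. Per the file headers, Cell Ranger 6.0.1 counted the control library and 7.0.1 the mutant. Builds mm10 and rn6 and Seurat 4.3 are named per the submitters' processing notes. The intron setting is not given in the sources used here.

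The gate, its members and the 36 gene lists were chosen with earlier results of these data known. Rat features held no Pecam1 symbol, so the rat endothelial limit rests on Cdh5. Doublets were not scored. Barcodes of mixed species were left out, 57 in the mutant library and 882 in the control library. UMIs were summed over cells and divided by own-species UMIs per 1000000 (CPM). A gene was compared if the mean of both species was at least 20 CPM and its feature had at least 20 UMIs in each species over the kept cells. Named genes are the gate genes, list members, and the widest differences with at least 100 CPM and 50 UMIs on the higher side; a few of these are not reported here. Mouse positions are from GENCODE vM21 by gene identifier. A fold against 0 uses a floor of 3 UMIs over the group.

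Scripts, checked on simulated data, used Python 3.11.15, NumPy 2.4.6, SciPy 1.17.1, pandas 2.3.3 and matplotlib 3.10.9.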

Additional observations from a re-analysis of the deposited data

Results flagged for a closer look

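Opposite calls in the 2 lungs were given to 3 genes among marker-rich cells and, with the gate of 4, to 7 genes higher and 12 lower in rat in the mutant lung. For 8 of the genes named in the text the difference of rat minus mouse was past 2-fold one way in the mutant lung and past 2-fold the other way in the control lung at either gate. With 1 library per host the change between lungs was not tested. In marker-rich cells Ccl2 was at 2.18 in the mutant lung on the log2 scale and just past 2-fold lower in rat in the control lung, a change of 3.18. Igfbp5 was at -2.74 and 1.56, a change of -4.30, and with the gate of 4 marker UMIs at -3.25 and 2.03, a change of -5.28. Usp22 was at 1.12 and -1.23 in marker-rich cells, a change of 2.35, and its change was 2.30 with the gate of 4. The others were found with the gate of 4, where most mouse cells were weakly marked. Cd9 was at -2.40 and 2.40 (-4.80), Clec3b at -1.96 and 3.57 (-5.53) and Igf1 at -2.24 and 1.41 (-3.65). Ebf1 was at 1.58 and -1.85 (3.43) and Septin9 at 1.08 and -1.85 (2.94). In marker-rich cells Ebf1 stood at 0.36 and Septin9 at 0.77 in the mutant lung, both within 2-fold.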

How the results depend on the processing

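The rat share of gated cells, 9.65%, was 4.82% with at least 2 marker UMIs, 18.5% with 8, 21.6% with 15, 12.3% with species limits of 80% and 20%, and 0.469% with limits of 95% and 5%, which left 3 rat cells; with 15 marker UMIs and those last limits it was 1.34%. Under the gate of 4, adding 50 CPM gave 336 higher and 400 lower genes, a mean of at least 100 CPM 297 and 241, and the 95% limits 1369 and 1360. Relative to the control lung these 3 settings gave 201, 176 and 1451 higher and 199, 120 and 1605 lower, and 15 marker UMIs 220 lower. Among marker-rich cells they gave 274, 213 and 1297 higher and 308, 187 and 1184 lower. Relative to control it was 136, 131 and 1391 higher and 89, 66 and 1383 lower; adding 1 CPM gave 952 and 351, and no filter on mean CPM 346 lower. Totals over shared symbols alone moved the median of all genes from 0.08 to -0.05 (gate of 4). Signs turned for Abcc9 (-0.72 with the 95% limits), Gjc1 (-0.00795 with 15 marker UMIs), Ptn (-2.27 and -1.13) and Srebf2 (-0.28 and -0.42), each of the last pair with the 95% limits at both gates. Over all settings, 3370 values of single named genes at the gate of 4 and 3123 at 15 moved by less than the half-width of their counting interval, and 542 and 257 moved by more without a called sign turning. The cause was not tested, except that fewer cells or genes enter the stricter settings. The gate of 15, the settings without ribosomal RNA-like features and that without very deep cells were chosen after seeing the data. No paired analysis was possible because each group has 1 library. The smallest group, 61 rat cells, limits low genes: a gene without UMI there can reach 3 counts, 4.57 CPM.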

Other observations

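These are the lists not described above, for marker-rich cells of the mutant lung. Over all genes 11.1% were higher in rat there and 11.8% lower. Of 12 compared Wnt genes 1 was higher in rat and 2 lower. Of 18 heat shock and unfolded protein genes it was 3 and 5, and of 11 glucocorticoid response genes none and 3. Of 29 cytosolic ribosomal protein genes 1 was higher and 1 lower. Of 4 retinoic acid genes 2 were lower. Adventitial fibroblast markers summed to 104 CPM in rat and 396 in mouse, red cell markers to 1.52 and 83.7, Schwann and neural markers to 10.7 and 6.82, and heart muscle markers to 12.2 and 47.0.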
